A study of Homo sapiens with 2 samples.

Results

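The genes described here are 37 regulators of chromatin and DNA methylation among the 37122 genes of an RNA-seq count table. They were chosen by name: the 11 zinc-dependent histone deacetylases (HDAC1 to HDAC11), 6 sirtuins, the Polycomb genes EZH1, EZH2, EED, SUZ12 and BMI1, the DNA methyltransferases DNMT1, DNMT3A and DNMT3B with their partner UHRF1, the 3 TET genes, the acetyltransferases CREBBP and EP300, the SWI/SNF subunits ARID1A, SMARCA4 and SMARCB1, and the histone demethylases KDM1A, KDM6A and KDM6B. The table compared Ramos, an established human cell line of Burkitt's lymphoma (BL), a B-cell cancer, and the rituximab-resistant line Ramos640 that was derived from it. Rituximab is an antibody against CD20, and Ramos640 cells received it together with 20% normal human serum every 21 days to keep up the resistance. The labels put the dose at 640 mg/mL. The methods of the study give the same figure in micrograms per mL. RNA from 3 passages of each line was pooled before sequencing, so there was 1 library per cell line. No difference between the lines therefore has a replicate check, no p-value is given, and what selection did cannot be told apart from drift of a single derived line in culture.

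These genes write, read and erase marks on histones and DNA. Histone deacetylases remove acetyl groups that CREBBP and EP300 add, and acetylated histones go with active genes. The Polycomb complex PRC2, with EZH2 or EZH1 as its catalytic subunit and EED and SUZ12 as its core, methylates histone H3 at lysine 27, a mark that KDM6A and KDM6B erase and that the PRC1 complex, to which BMI1 belongs, reads. DNMT1 and UHRF1 copy DNA methylation after replication, DNMT3A and DNMT3B set it on unmethylated DNA, and TET enzymes oxidize it. In germinal-centre B cells, where BL arises, EZH2 is abundant, and EZH2, CREBBP, EP300, KDM6A, TET2, ARID1A and SMARCA4 are known targets of mutation in lymphoma. Inhibitors of histone deacetylases can raise CD20 on B-cell lymphoma cells.

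The libraries held 38030090 reads for Ramos and 30871826 for Ramos640. Counts were scaled by median-of-ratios size factors (1.14 and 0.876), and 1 was added to every scaled count before log2 fold changes (Ramos640 over Ramos) were computed. Each fold change has a 95% interval from the exact Clopper-Pearson method, which covers counting error only. Levels are in CPM (reads scaled to equal library totals), or in RPKM (CPM divided by the length of the canonical transcript in kilobases) where genes are compared with each other. All 9 B-cell markers examined were read in both lines, with at least 1904 reads each. MS4A1, which encodes CD20, was at -1.96 on the log2 scale (9654 and 1904 reads). MME (-0.92) and PAX5 (-0.80) were also lower by more than 1.5-fold, CD79B (0.64) was higher, and the other 5 lay within 1.5-fold. Corrected for GC content, as described with the GC values below, CD79B was at 0.42, within 1.5-fold. MS4A1 (-1.63), MME (-0.61) and PAX5 (-0.93) were then still past it. The median of the 9 was -0.36. Markers of T cells (4 genes), monocytes (3) and epithelial cells (3) summed to between 0.131 and 1.04 CPM in each library, with CD3D and CD2 at 0 in both. The highest of these was CD3E, with 1 read in Ramos and 31 in Ramos640. In bulk RNA, fewer cells with a transcript and less of it per cell cannot be told apart.

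Most of the regulators differed little between the 2 libraries. Of the 37 genes, 36 had at least 10 reads in the libraries together, and 34 of these lay within 1.5-fold, the fold criterion of the study. DNMT3B was the only one higher in Ramos640 by more than 1.5-fold, and HDAC11, with 17 reads in all, was the only one lower. That is 2.78% of the 36 genes in each direction, while of the 18778 genes that reached 10 reads 14.6% lay above this fold and 17.3% below its inverse. The regulators were read more deeply than most genes (a median of 2728 reads against 672), and more deeply read genes had smaller fold changes. Among the 13677 genes with at least 100 reads, 9.94% were higher and 12.6% lower past 1.5-fold, against 1 and 0 of 34 regulators. Among the 8226 genes with at least 1000 reads the shares were 6.87% and 7.93%, against 1 and 0 of 28 regulators. The median size of the log2 fold change, without its sign, was 0.145 over these 28 genes and 0.262 over the 8226, while over all 18778 genes it was 0.366.

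By counting error alone, the interval lay above 0 for 11 of the 36 genes and below 0 for 11, and it included 0 for 14. Over all genes the corresponding shares were 29.6% above and 31.6% below. Scaling to total counts changed the split of the regulators to 8 above and 16 below, and removing the trend over GC content changed it to 7 and 16. On the log2 scale the 36 genes had a median fold change of -0.027, beside -0.015 over all genes tested. Together the 37 genes took 3512 CPM in Ramos and 3361 CPM in Ramos640.

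**Figure D1:**
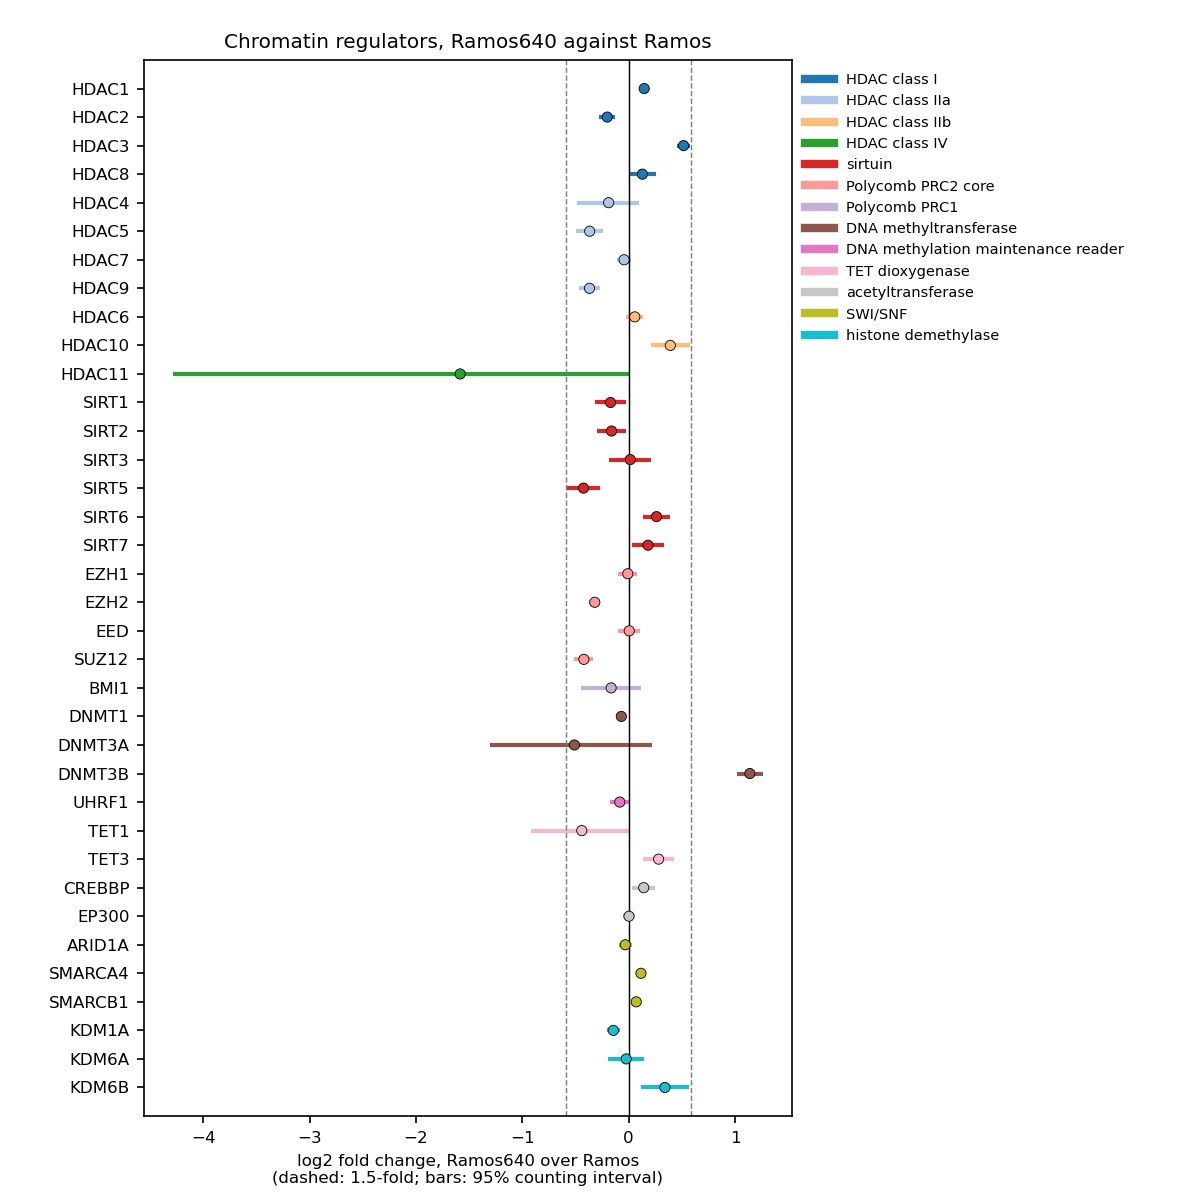
Log2 fold change of Ramos640 over Ramos for the 36 chromatin regulators with at least 10 reads, coloured by family; bars are 95% counting intervals of 1 library per line and dashed lines mark 1.5-fold. DNMT3B (1.14) stands alone on the right, HDAC11 (-1.58) has the widest interval, and the other 34 points lie between the dashed lines.

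DNMT3B, a de novo DNA methyltransferase, had 934 Ramos reads and 1582 Ramos640 reads. This is 24.6 and 51.2 CPM, a 2.20-fold higher level in Ramos640 (1.14 on the log2 scale, interval from 1.02 to 1.26). Correcting for GC content, as described with the GC values, left DNMT3B at 1.02. The other de novo enzyme, DNMT3A, was barely read, with 45 reads in Ramos and 24 in Ramos640 (1.18 and 0.777 CPM). Its log2 fold change was -0.51 with an interval from -1.30 to 0.22, so a difference was not detectable at this depth. DNMT1, the maintenance enzyme, was abundant in both lines, at 582 and 525 CPM (22130 and 16202 reads, log2 fold change -0.069, interval from -0.098 to -0.039). UHRF1, which brings DNMT1 to newly replicated DNA, had 2448 and 1774 reads (-0.083, interval from -0.17 to 0.0053).

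Ratios between 2 genes within a library do not depend on how the libraries are scaled, but those given here are not corrected for GC content. Per transcript length, DNMT3B was at 45.1 times the level of DNMT3A in Ramos (interval from 33.4 to 62.3) and at 143 times in Ramos640 (95.9 to 224), a 3.17-fold change in the ratio (interval from 1.88 to 5.49). Against DNMT1, DNMT3B was at 0.0513 times its level in Ramos and 0.119 times in Ramos640, a 2.31-fold change (2.13 to 2.52). The ratio of UHRF1 to DNMT1 stayed at 0.150 and 0.148, a change of 0.990 with an interval from 0.928 to 1.06. The balance of the de novo enzymes thus differed between the libraries while that of the maintenance pair did not differ beyond counting error.

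DNMT3B lies on chromosome 20 of GRCh37, from 31350191 to 31397165 on the plus strand. Of the 10 nearest protein-coding genes with at least 100 reads, 5 on either side, none was higher past 1.5-fold. Their log2 fold changes had a median of 0.058 and a range from -1.43 (C20orf112) to 0.54 (COMMD7). The value of DNMT3B was thus outside the range of its neighbours. For HDAC3, on chromosome 5 from 141000443 to 141016416, the 10 neighbours had a median of 0.29 and a range from -0.21 to 0.72. Its own 0.52 lay within that range only through the protocadherin genes PCDHGA12, PCDHGC3 and PCDHGC5 (0.56 to 0.72). These genes and PCDHGC4 (0.48) overlap each other in position, so their values are not separate neighbours. The highest of the other neighbours was KIAA0141 at 0.31, below HDAC3.

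Cytosines followed by guanine (CG) are the substrate of DNA methyltransferases, and their number in the window from 250 bases before to 50 bases after a gene's start is a feature that the choice of genes did not use. Over the 37 regulators this window held a median of 31 CG (from 5 in HDAC9 to 55 in SMARCA4), beside a median of 23 over 19867 protein-coding genes. The windows of DNMT3A and HDAC11, both scarcely read in either line, are shown, read on GRCh37 at the start of the canonical GENCODE transcript, 5′ to 3′ along the gene, with each CG in capitals. DNMT3A (chr2:25564745-25565044, minus strand) has 46 CG, and HDAC11 (chr3:13521556-13521855, plus strand) has 30.
DNMT3A: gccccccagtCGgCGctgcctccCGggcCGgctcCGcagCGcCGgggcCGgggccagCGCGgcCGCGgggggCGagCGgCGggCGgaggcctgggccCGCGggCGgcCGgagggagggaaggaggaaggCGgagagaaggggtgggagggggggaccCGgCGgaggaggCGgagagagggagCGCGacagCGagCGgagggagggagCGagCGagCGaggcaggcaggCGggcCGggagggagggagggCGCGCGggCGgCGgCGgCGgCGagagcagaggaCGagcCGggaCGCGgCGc
HDAC11: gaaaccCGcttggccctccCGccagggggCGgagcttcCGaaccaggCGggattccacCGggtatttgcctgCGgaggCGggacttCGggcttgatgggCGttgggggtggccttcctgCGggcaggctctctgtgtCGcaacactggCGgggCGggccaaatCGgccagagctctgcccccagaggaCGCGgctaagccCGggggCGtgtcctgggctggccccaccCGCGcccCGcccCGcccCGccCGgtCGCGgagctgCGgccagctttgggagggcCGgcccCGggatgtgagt

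The HDAC11 window thus held more CG than the median over all genes but fewer than the median over the regulators, and that of DNMT3A held more than either. The GC box GGGCGG, searched on both strands, was in 5 places of the HDAC11 window and 3 of the DNMT3A window. It occurred in 28 of the 37 windows (75.7%) and in 61.5% of all windows. CCAAT occurred in 13 of 37 (35.1%, beside 36.0%). The E2F words TTTGGCGC or TTTCCCGC occurred in 4 of 37 windows, those of EZH2, SUZ12, UHRF1 and SIRT6 (10.8%, beside 3.08%). These are matches of letters, with no measurement of binding or methylation here.

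Among the class I deacetylases, HDAC1 had the highest level of all 37 genes per transcript length, at 160 RPKM in Ramos and 168 RPKM in Ramos640. It had 12916 and 10978 reads (log2 fold change 0.15, interval from 0.11 to 0.18). HDAC2, which joins the same complexes, had 3442 and 2299 reads (-0.20, interval from -0.28 to -0.12), and HDAC2 turned to 0.13 once the GC trend was removed. HDAC3, the catalytic subunit of nuclear receptor co-repressor complexes, had 3992 and 4387 reads. Its log2 fold change of 0.52 (interval from 0.46 to 0.58), or 1.43-fold, was the second highest among the 36 genes and just short of 1.5-fold. The ratio of HDAC3 to HDAC1 per transcript length went from 0.339 in Ramos to 0.438 in Ramos640, a 1.29-fold change (interval from 1.23 to 1.36). HDAC8 had 1056 and 887 reads (0.13, interval from -0.00093 to 0.26). Class I thus held values of both signs, but without the GC trend all 4 genes were positive and HDAC2 (0.13) was no longer below HDAC1 (0.10).

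The 4 class IIa genes, whose products shuttle between nucleus and cytoplasm and bind MEF2 factors, all had negative values. HDAC5 (1362 and 811 reads, log2 fold change -0.37) and HDAC9 (2204 and 1311 reads, -0.37) had intervals below 0. Without the GC trend the 2 came apart, with HDAC5 at -0.56 and HDAC9 at -0.10. HDAC7, the most abundant of them at 30.3 and 27.8 RPKM, was at -0.043 (4856 and 3620 reads, interval from -0.11 to 0.020). HDAC4 had 245 and 165 reads (-0.19, interval from -0.48 to 0.10). HDAC5 shares exon sequence with G6PC3 on the opposite strand, and whether the counts used strand is not stated. HDAC7 stood at 5.17 times the level of HDAC9 per transcript length in Ramos and 6.48 times in Ramos640. Without the GC trend, however, HDAC7 (-0.26) was below HDAC9.

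In class IIb, HDAC6, the cytoplasmic tubulin deacetylase, had 2948 and 2356 reads (log2 fold change 0.058, interval from -0.021 to 0.14), and HDAC6 was negative under total counts (-0.023) and without the GC trend (-0.13). HDAC10 had 487 and 491 reads (0.39, interval from 0.21 to 0.58), though its exons overlap those of MAPK12 on the same strand. HDAC11, the only class IV enzyme, had 14 and 3 reads. The log2 fold change was -1.58 with an interval from -4.28 to -0.00015, which all but reaches 0. With 0.368 and 0.0972 CPM, HDAC11 was scarcely read in either line, and the 3 reads in Ramos640 are no more than a count of 0 would allow.

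The sirtuins, deacetylases and deacylases that depend on NAD, showed both directions. SIRT5, a mitochondrial desuccinylase, had 967 and 553 reads and the lowest value (log2 fold change -0.42, interval from -0.58 to -0.27). SIRT6 (1024 and 943 reads, 0.26) and SIRT7 (793 and 691, 0.18), both nuclear, had intervals above 0. SIRT1 (935 and 638, -0.17) and SIRT2 (1124 and 772, -0.16) had intervals below 0, and SIRT3 was at 0.015 (473 and 367 reads, interval from -0.19 to 0.21). SIRT1, SIRT3 and SIRT7 changed sign when the GC trend was removed, to 0.070, -0.11 and -0.0092, and SIRT3 also under total counts (-0.065). SIRT2 and SIRT3 overlap another gene on the opposite strand and SIRT7 one on the same strand. SIRT4, the mitochondrial sirtuin outside the 37 genes, had 14 and 41 reads (1.85, interval from 1.03 to 2.92).

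**Figure D2:**
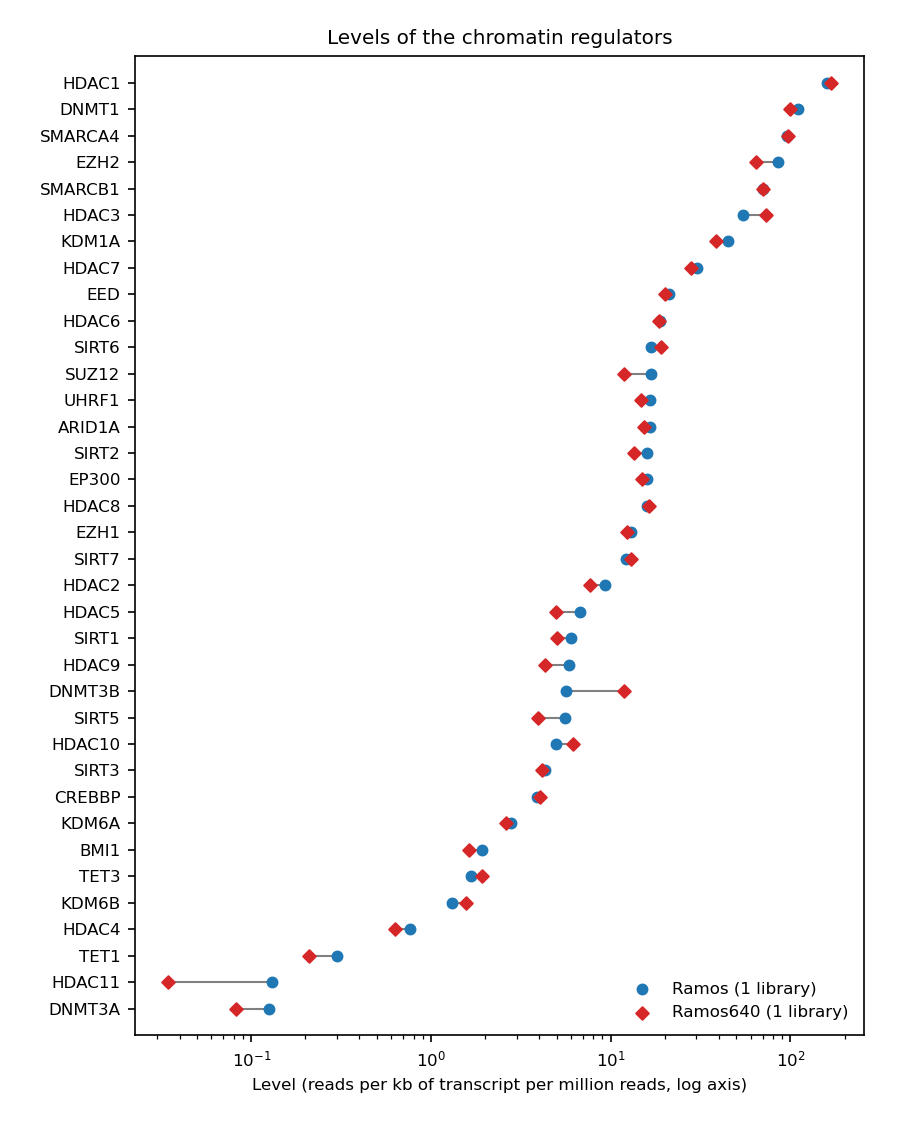
Level of each of the 36 regulators with at least 10 reads in Ramos (circles) and Ramos640 (diamonds), in RPKM on a log axis, ordered by the Ramos level. HDAC1 is highest in both lines at 160 and 168 RPKM, and the widest gaps between symbols are those of HDAC11 and DNMT3B.

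Of the PRC2 core, EZH2 and SUZ12 had intervals below 0, and those of EED and EZH1 included 0. EZH2, the catalytic subunit of dividing cells, had 8560 and 5271 reads, or 84.8 and 64.3 RPKM (log2 fold change -0.32, interval from -0.37 to -0.27). SUZ12 had 2860 and 1640 reads (-0.42, interval from -0.51 to -0.33). EED had 1684 and 1298 reads (0.0055, interval from -0.10 to 0.11), and EZH1, the alternative catalytic subunit, 2295 and 1753 (-0.0076, interval from -0.098 to 0.083). None of these 4 genes reached 1.5-fold. The ratio of EZH2 to EZH1 per transcript length was 6.51 in Ramos and 5.25 in Ramos640, a change to 0.806 times its value (interval from 0.750 to 0.866). The ratio of EED to SUZ12 was 1.34 times as high in Ramos640 (interval from 1.22 to 1.48). Both EZH2 and SUZ12 have a pseudogene with reads, EZH2P1 with 163 and 82 reads and SUZ12P1 with 526 and 301, so that some reads could have been assigned to the wrong copy. SUZ12 transcripts have 38.2% GC, and after the GC trend was removed SUZ12 was at -0.11 and EZH2 at -0.23. BMI1 of PRC1 had 260 and 178 reads (-0.16, interval from -0.45 to 0.12, and 0.10 without the GC trend), and its reads may be shared with the read-through gene COMMD3-BMI1 (391 and 281 reads).

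EZH2, DNMT1 and UHRF1 are genes of proliferating cells, so a list of 12 proliferation genes is given beside them. None of the 12 was past 1.5-fold, and their median log2 fold change was -0.090, from -0.49 (TOP2A) to 0.33 (E2F1). MKI67 had 28322 and 21914 reads (0.011). The part of proliferation in the value of EZH2 was not tested.

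The TET genes were read unevenly. TET3 had 770 and 719 reads (log2 fold change 0.28, interval from 0.13 to 0.43) and TET1 110 and 62 (-0.44, interval from -0.92 to 0.016). TET3 was at 5.58 times the level of TET1 per transcript length in Ramos and 9.24 times in Ramos640, a 1.66-fold change (interval from 1.18 to 2.34). TET2 had 0 and 1 reads. A count of 0 allows up to 3 reads, or 0.0789 CPM in Ramos and 0.0972 CPM in Ramos640, and no fold change is given for TET2.

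The acetyltransferase EP300 had 5292 and 4073 reads (log2 fold change 0.0034, interval from -0.056 to 0.063), and CREBBP 1591 and 1348 (0.14, interval from 0.036 to 0.25). Without the GC trend CREBBP came to -0.0011 and EP300 to -0.053. CREBBP stood at 0.245 times the level of EP300 per transcript length in Ramos and 0.269 times in Ramos640. The SWI/SNF genes SMARCA4 and SMARCB1 ranked among the 5 highest of the 37 genes per transcript length, and all 3 subunits lay close to 0. SMARCA4, the ATPase, had 20171 and 16784 reads (0.12, interval from 0.086 to 0.15), SMARCB1 13903 and 11219 (0.072, interval from 0.036 to 0.11) and ARID1A 5383 and 4044 (-0.032, interval from -0.091 to 0.028). SMARCB1, whose exons overlap DERL3 on the opposite strand (616 and 844 reads), flipped to -0.0086 under total counts, and SMARCB1 and SMARCA4 to -0.14 and -0.12 without the GC trend. KDM1A, which removes methyl groups from lysine 4 of histone H3, had 5305 and 3687 reads (-0.14, interval from -0.20 to -0.083). Of the H3K27 demethylases, KDM6A had 647 and 489 reads (-0.023, interval from -0.20 to 0.15, and 0.11 without the GC trend) and KDM6B 335 and 326 (0.34, interval from 0.12 to 0.57).

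**Figure D3:**
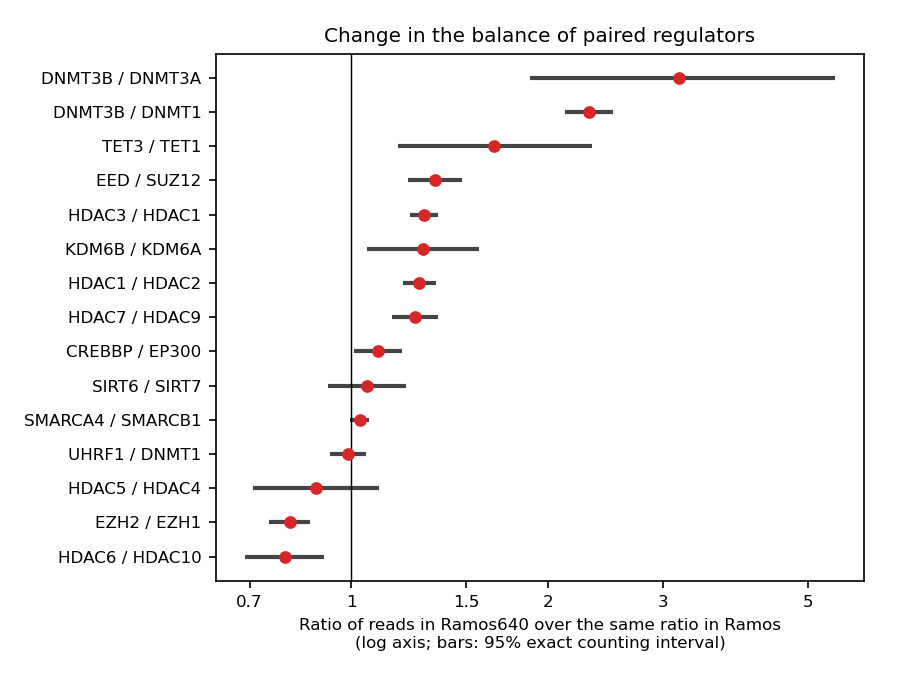
Change in the ratio of reads between 2 regulators, Ramos640 over Ramos, for 15 pairs on a log axis; bars are 95% exact counting intervals and 1 means no change. The pairs with DNMT3B lie farthest right at 3.17 and 2.31, and UHRF1 to DNMT1 (0.990) lies on the line. The changes are not corrected for GC content.

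In all, 15 pairs of regulators were compared in this way. The interval of the change lay above 1 for 9 pairs, below 1 for 2 (EZH2 to EZH1 and HDAC6 to HDAC10) and included 1 for 4 (HDAC5 to HDAC4, SIRT6 to SIRT7, SMARCA4 to SMARCB1 and UHRF1 to DNMT1). The pairs were picked after the values were seen, so these counts describe the libraries only. The changes were not corrected for GC content. Without the GC trend HDAC7 (-0.26) was below HDAC9 (-0.10), and HDAC1 (0.10) was no longer above HDAC2 (0.13). KDM6B (0.15) was then close to KDM6A (0.11), while DNMT3B (1.02) stayed above DNMT3A (-0.63) and DNMT1 (-0.20). A level per length depends on the transcript taken: with the union of a gene's exons in place of the canonical transcript, EED was at 0.551 and not 1.27 times SUZ12 in Ramos, and KDM6B at 1.94 and not 0.469 times KDM6A.

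The fold changes of the regulators followed GC content as those of other genes did. Over the 36 genes Spearman's rho between transcript GC content and log2 fold change was 0.426, beside 0.433 over the 10194 protein-coding genes that had 100 reads or more. Both are correlations across genes of the same 2 libraries, and genes are not independent replicates. Of the 9 regulators under 45% GC, 8 had negative values, with a median of -0.20. From 45 to 55% the signs were 7 positive and 6 negative, with a median of 0.0034. At 55% or above 8 were positive and 6 negative, with a median of 0.065. The part of GC content in single values was not tested. DNMT3B at 53.9% GC and HDAC3 at 52.4% GC kept 1.02 and 0.40 when the trend was removed.

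**Figure D4:**
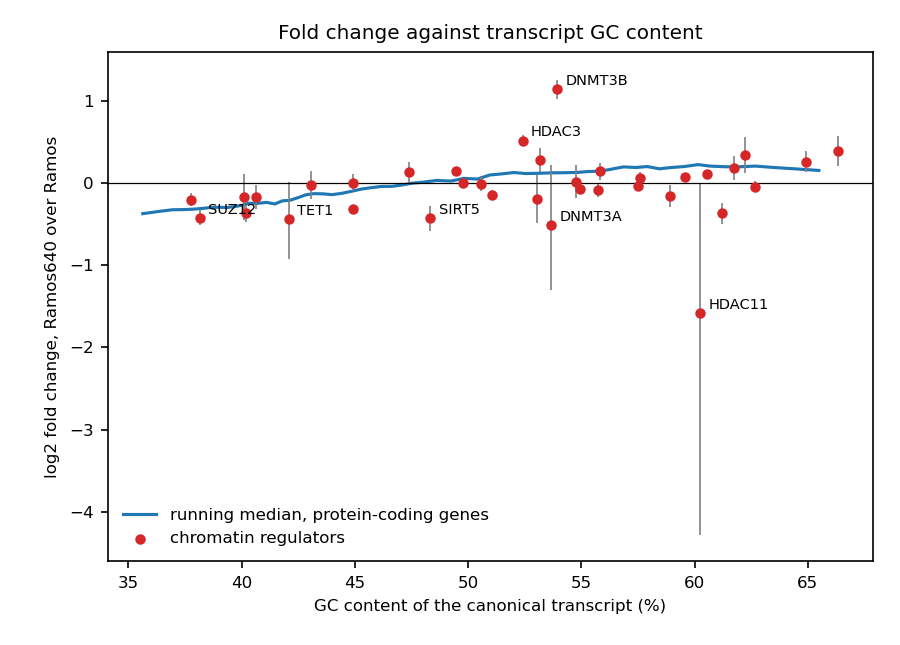
Log2 fold change of the 36 regulators against the GC content of their canonical transcripts in percent; vertical bars are 95% counting intervals and the line is the running median over protein-coding genes. Of the 9 regulators under 45% GC, 8 lie below 0, and DNMT3B lies far above the line.

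Around these genes, 133 further subunits and regulators of the same systems were examined, of which 130 had at least 10 reads. Of these, 8 (6.15%) were higher and 11 (8.46%) lower past 1.5-fold, with a median log2 fold change of -0.019. With total counts the numbers were 6 and 17. Over all genes with at least 10 reads the shares were 14.6% higher and 17.3% lower, and with at least 100 reads 9.94% and 12.6%. The same shares stand beside the counts of the lists below. MBD2 and SIRT4 were the only ones of the 130 with a larger log2 fold change, in either direction, than HDAC11.

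The largest difference was in MBD2, a subunit of the NuRD deacetylase complex that binds methylated DNA. Ramos had 12133 MBD2 reads and Ramos640 2494, a 3.73-fold lower level (-1.90 on the log2 scale, interval from -1.96 to -1.84). MBD1, another reader of methylated DNA, had 5709 and 1904 reads (-1.20, interval from -1.28 to -1.13). Both lie on chromosome 18 of GRCh37, MBD1 from 47793252 to 47808144 and MBD2 from 51677976 to 51751039, where their neighbours were lower too. All 10 nearest protein-coding genes of each were lower past 1.5-fold, with medians of -1.61 around MBD1 and -1.68 around MBD2, and some genes stand in both sets. None of the 37 regulators lies on chromosome 18. MBD4, a methyl-binding glycosylase on chromosome 3, had 3866 and 1742 reads (-0.77, interval from -0.85 to -0.69), with some exon sequence shared with IFT122. A list of 11 readers and helpers of DNA methylation leaves out MBD2 and MBD3 (0.33), which were counted with the co-repressor partners below. Of the 11, 3 were lower past 1.5-fold (MBD1, MBD4, and ZBTB38 with 66 and 27 reads) and 0 higher. Negative values were seen in 9 of the 11 (median -0.36). Over all genes with at least 10 reads the median was -0.015, and 17.3% were lower past 1.5-fold. MBD4 came within 1.5-fold (-0.55) without the GC trend.

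Among the 31 co-repressor partners of the deacetylases, 2 were higher and 2 lower past 1.5-fold (6.45% each, beside 14.6% and 17.3% over all genes). BRMS1, of the SIN3 complex, had 2729 and 4219 reads (log2 fold change 1.01), the highest value of the list. Besides MBD2, TBL1XR1 of the HDAC3 complexes was lower, with 2012 and 926 reads (-0.74, and -0.38 without the GC trend). BRMS1 and MBD2 thus lay at opposite ends of the list, whose median was 0.00084. Of the 4 MEF2 factors, MEF2C was lower (2731 and 1355 reads, -0.63, and -0.33 without the GC trend), MEF2D was at 0.50 (3108 and 3367), MEF2A at -0.31 (1488 and 923) and MEF2B at 0.0037 (6461 and 4974).

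In the Polycomb lists, 1 of the 6 PRC2 accessory genes with reads was past 1.5-fold, MTF2, with 4065 and 1917 reads (log2 fold change -0.70). Without the GC trend MTF2 was at -0.38, within 1.5-fold, and PHF1 at -0.67 was the gene past it. The others were at 0.037 (PHF19, 5636 and 4440 reads), -0.11 (EPOP, 1723 and 1223), -0.19 (AEBP2, 924 and 621), -0.25 (JARID2, 1284 and 828) and -0.47 (PHF1, 733 and 407), and EZHIP had no reads. The 20 PRC1 genes split into 4 higher (20%) and 2 lower (10%), beside 14.6% and 17.3% over all genes. Without the GC trend the PRC1 genes split into 2 higher (PCGF1 and CBX8) and 1 lower (SCMH1). PCGF1 (355 and 514 reads, 0.91) and CBX8 (91 and 129, 0.88) were the highest, and SCMH1 (1174 and 529, -0.77) and PCGF6 (439 and 214, -0.65) the lowest. Negative values were seen in 5 of the 6 PRC2 genes and 8 of the 20 PRC1 genes. The median over all genes with at least 10 reads was -0.015. Without the GC trend the negative genes were 5 of 6 and 10 of 20, with AEBP2 at 0.11 and PHF19 at -0.16. Whether the 2 lists differ was not tested. BAP1, ASXL1 and ASXL2, of the complex that removes the PRC1 mark, were at 0.097, 0.078 and -0.22.

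Of the 23 other SWI/SNF genes with at least 10 reads, 2 (8.70%, beside 17.3% over all genes) were lower past 1.5-fold and 0 were higher. The 2 were BCL7C (478 and 195 reads, log2 fold change -0.91) and SS18L1 (581 and 270, -0.72). KAT2A (3728 and 4548 reads, 0.67, and 0.44 without the GC trend) was the 1 of 11 other acetyltransferases past this fold. The 6 H3K4 methyltransferases, from -0.40 (KMT2A) to 0.58 (SETD1A), and the 14 other demethylases with at least 10 reads had none. Without the GC trend 1 of the 14 demethylases was lower past 1.5-fold. KMT2C, KMT2D, KMT2B and SETD1B were at -0.11, 0.28, 0.32 and -0.30.

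**Figure D5:**
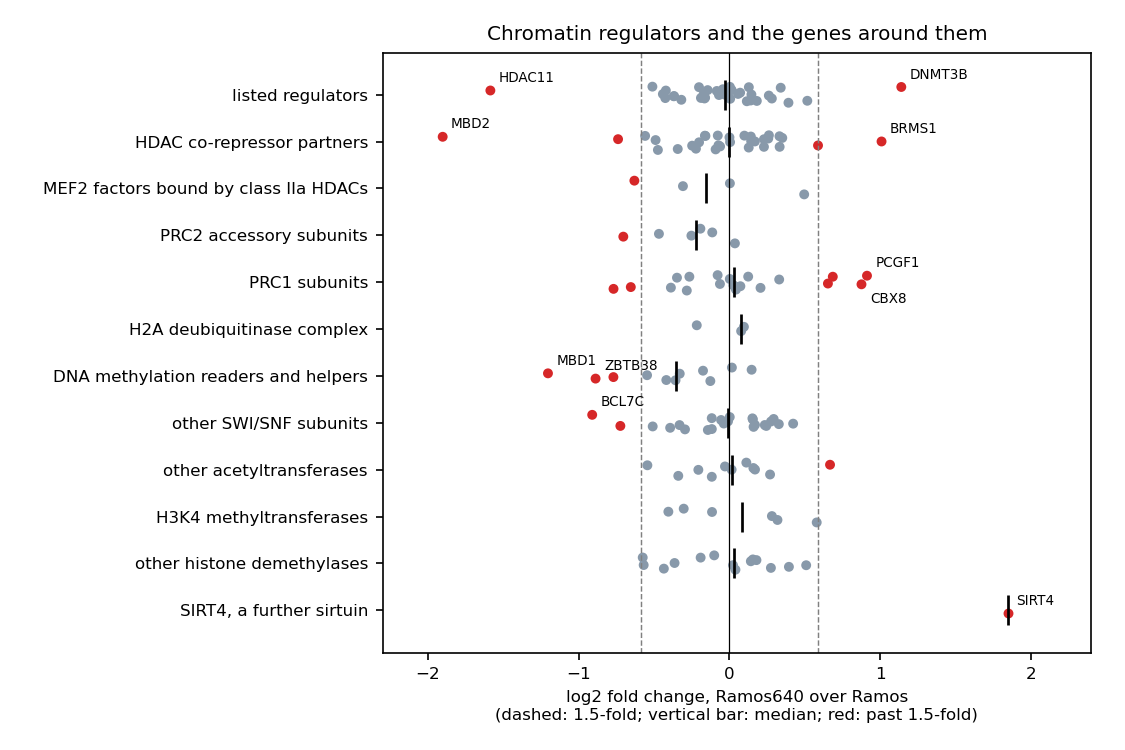
Log2 fold change of Ramos640 over Ramos for the listed regulators (36 genes) and for 11 lists of related genes with at least 10 reads; each point is a gene, vertical bars are list medians and red marks genes past 1.5-fold. MBD2 (-1.90) and MBD1 (-1.20) lie farthest to the left among the related genes with over 100 reads.

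Target genes of these systems were also examined. Of 21 germline genes that DNA methylation keeps silent in body cells, 17 had no reads in either library, and only SYCP3 had at least 10 (113 and 50 reads, log2 fold change -0.78, interval from -1.31 to -0.30). SYCP3 was at -0.46 without the GC trend and shares exon sequence with CHPT1 on the opposite strand, which had 978 and 300 reads. MAGEA12 had 0 reads in Ramos and 7 in Ramos640. Of 6 Polycomb target genes, IRF4 (7255 and 5369 reads, -0.053) and CDKN2A (1908 and 1583, 0.11) were the only ones with over 50 reads. PRDM1, the plasma cell regulator, had 16 and 31 reads (1.28, interval from 0.42 to 2.30), CDKN2B 35 and 10 (-1.35, interval from -2.61 to -0.38) and CDKN1A 21 and 25 (0.61, interval from -0.26 to 1.54). CDKN1C had 7 and 1 reads.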

How the data were processed

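RNA-seq was performed on 1 library of Ramos and 1 of Ramos640. The authors removed adaptors from Ion Proton reads, aligned them to GRCh37 with MapSplice (v2.1.6) and deposited whole-number counts per gene without normalization. The counting program, its annotation, its use of strand and its treatment of reads that match several genes are not given in the sources used here. Of the 37122 rows, 28 carry a number instead of a gene name and were kept.

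Size factors, fold changes and Clopper-Pearson intervals were computed in Python 3.11.15 (scipy 1.17.1), with a minimum of 10 reads in both libraries together. With 1 library per line no dispersion can be estimated, so edgeR (4.0.16) gave only TMM factors and no count test was run. Ratio changes are conditional odds ratios with exact intervals. Transcript length, GC content, coordinates and exon overlaps came from GENCODE v44lift37 (26511 rows matched by symbol, 2304 by an older symbol). The GC trend was a running median over 501 protein-coding genes, each with 100 reads or more. Size factors, fold changes and their intervals were tested on simulated counts. The ratio changes, the GC trend and the annotation steps were not.

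The 37 genes and all gene lists were chosen with earlier results of these data known. All 37 are named. Of each list, the 2 highest and 2 lowest genes past 1.5-fold with at least 100 reads are named, and every gene of lists under 8 genes. SIRT4, ZBTB38, MBD3, the neighbouring genes and the pairs were picked after their values were seen. Some items are not reported here.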

Additional observations from a re-analysis of the deposited data

How the results depend on the processing

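The 8 alternatives were TMM and total-count scaling, pseudocounts of 0.1 and 10, minimums of 1, 100 and 1000 reads and removal of the GC trend. The minimum of 1000 reads and the alternatives for the related genes were chosen after seeing the data. DNMT3B was higher past 1.5-fold under all 8. Total counts and the GC trend each gave 2 lower regulators instead of 1, since DNMT3A joined HDAC11. With minimums of 100 and 1000 reads there were 0 lower regulators, because HDAC11 and DNMT3A have fewer reads. A minimum of 1 read gave 2 higher, because TET2 with 1 read then counts. Removing the GC trend left 7 intervals above 0 instead of 11. Past 1.5-fold, the related genes numbered 17 lower under total counts, 5 higher and 7 lower with at least 1000 reads, and 4 higher without the GC trend. Among regulators whose interval left out 0, signs changed for SMARCB1 under total counts (-0.0086), and without the GC trend for HDAC2 (0.13), SIRT1 (0.070), SIRT7 (-0.0092), CREBBP (-0.0011), SMARCA4 (-0.12) and SMARCB1 (-0.14). Of those whose interval included 0, signs also changed for HDAC6, SIRT3, EED and EP300 under total counts and for HDAC6, SIRT3, BMI1, EP300 and KDM6A without the GC trend. The cause of the sign changes was not tested. TMM moved the median of all genes by -0.0097 and total counts by -0.080 on the log2 scale. No paired analysis was possible because each line has 1 library. HDAC11, DNMT3A and TET2 are limited by depth.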
